A study of Homo sapiens with 6 samples.

Results

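The extracellular matrix genes described here were the collagens, the laminins and the proteins of microfibrils and elastic fibres, read in C4-2B human prostate cancer cells before and after selection for resistance to enzalutamide. They were chosen by symbol, as every gene of the expression table named as a collagen chain (COL), a laminin alpha, beta or gamma chain (LAMA, LAMB, LAMC), a microfibril associated protein (MFAP), a fibrillin (FBN), elastin (ELN) or a fibulin (FBLN). The rule gave 70 of the 58024 genes in the table, namely 44 collagen genes, 12 laminin genes and 14 genes of microfibrils and elastic fibres. C4-2B is an established line that descends from LNCaP cells through growth in castrated mice, and enzalutamide is an antiandrogen. RNA-Seq was performed on 3 libraries of parental cells, which were passaged with dimethyl sulfoxide as the vehicle, and on 3 libraries of resistant cells. The vehicle is given as 1% in the series text, whereas the paper states a lower maximum for it. The resistant cells had been passaged in enzalutamide raised stepwise from 1 to 20 µM for a minimum of 6 months, and 5 µM was used to maintain them. The labels place RNA extraction after 10 µM enzalutamide and name parental and resistant cells together, so it was not clear whether the parental cells also received the drug. The surviving cells were pooled, so the resistant libraries come from a single selected population, and nothing states that the 3 libraries of a group came from separate cultures. The p-values therefore measure the spread between these libraries, which may be technical.

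Collagens are triple helices of 3 alpha chains. Fibrillar collagens such as types I, II, III and V form the banded fibres of connective tissue, type IV forms the sheet-like network of basement membranes, and type VI forms beaded filaments around cells. Laminins are cross-shaped trimers of 1 alpha, 1 beta and 1 gamma chain, and they are the other main polymer of basement membranes, where integrins and dystroglycan on the cell surface bind them. Fibrillins form microfibrils, onto which elastin is laid with the help of fibulins and microfibril associated proteins. In the prostate, epithelial cells rest on a basement membrane and contribute to it, while most fibrillar collagen and elastic fibre is made by stromal cells, which are absent from a culture of a single cancer line.

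Values are FPKM, that is fragments scaled to transcript length and to the mapped fragments of a library, as the authors' table was taken to give them, so levels of different genes are comparable per length. The depth was estimated at 14100000 to 20400000 reads per library, and at this depth a single read adds 0.00843 to 0.0122 FPKM to a gene of 6000 bases. A value of 0 is written as listed at 0, because the table holds no counts. Changes are given as log2 fold changes of FPKM with 0.1 added, which understates the change of genes at low levels, with the standard error (SE) and a p-value adjusted over all 24468 genes tested. Gene changes written as -fold are instead ratios of the group means of FPKM with nothing added. The log2 fold change is a difference of mean log values, so both measures can differ in either direction at low levels. Genes with an adjusted p below 0.05 were called, and only those are said to have risen or fallen. Of all genes tested, 44.4% were called, 22.1% as higher and 22.3% as lower in resistant cells, so that a call was common in this comparison. The 3 resistant values lay all above the 3 parental values in 26.6% of the genes tested and all below them in 28.1%, together 54.8%. Of the 56 members tested, 24 had all resistant values above and 17 had all of them below the parental values.

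Of the 70 genes, 56 were tested. In the resistant cells 20 of them rose, 15 fell and 21 were not called. The 14 genes that were not tested had a mean below 0.1 FPKM over the 6 libraries, and 3 of these, COL6A5, COL6A6 and MFAP4, were listed at 0 in every library. Besides these 3, 11 genes had only zeros in the parental group and were above 0 in at least 1 resistant library. Several members passed the filter only through the group in which they were high, so the counts are read against the background and not as support. Of the tested members 35.7% rose and 26.8% fell, against 22.1% and 22.3% of all genes tested. Of all 70 members 28.6% rose and 21.4% fell, against 9.32% and 9.42% of all 58024 genes listed. The median log2 fold change was 0.62 over the tested members and -0.05 over all genes tested. A mean of 1 FPKM in either group was reached by 36 of the 70 genes, and when testing was limited to genes averaging 1 FPKM or more across the libraries, 9 members rose and 13 fell. At this filter 29 members were tested. Of all 16382 genes tested with it, 4214 rose and 4807 fell. The summed level of the members was lower in resistant cells, at 448 ± 27.2 FPKM against 627 ± 56.5 FPKM in parental cells (SD, n = 3 each). In bulk RNA, fewer cells of a type and less RNA per cell cannot be told apart.

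**Figure D1:**
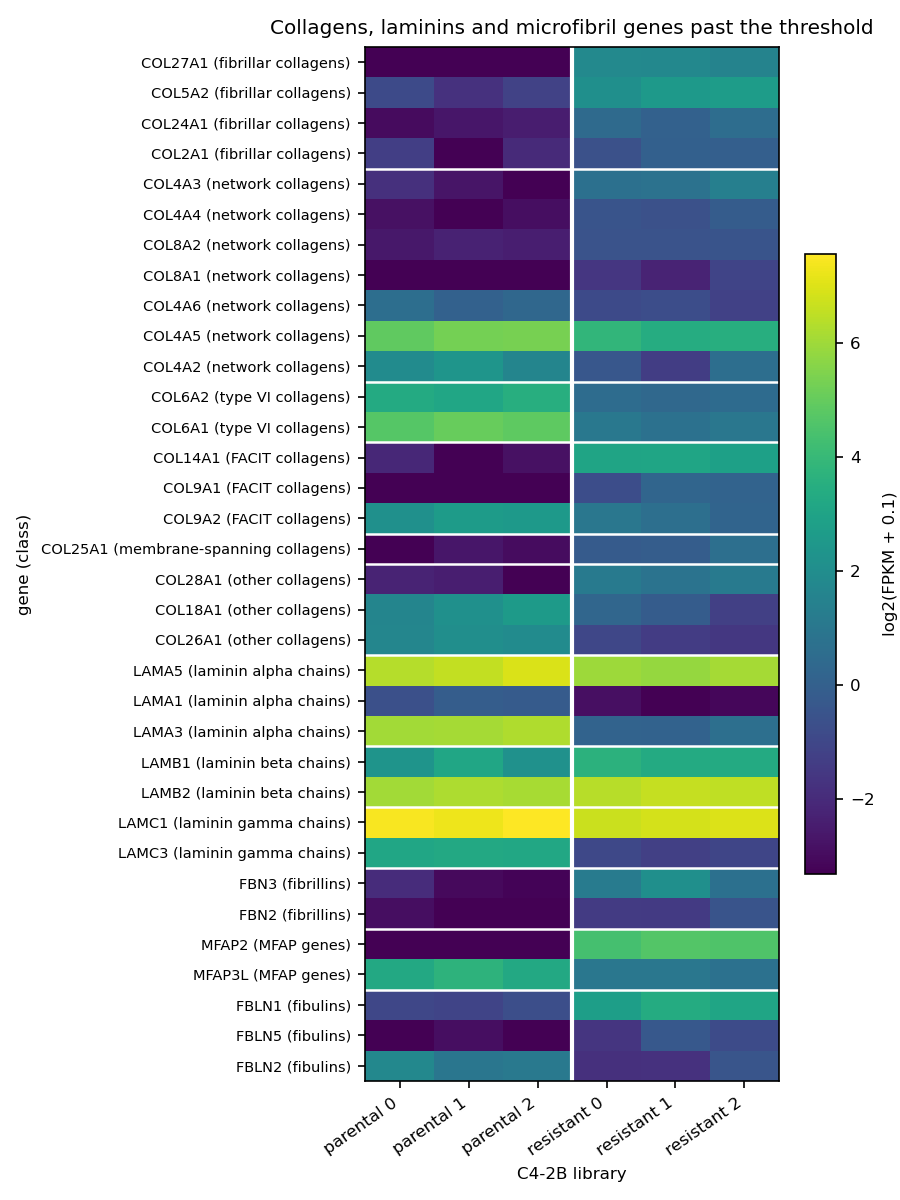
Level of 34 called members in each library, as log2(FPKM + 0.1) on the colour scale, with parental libraries left and resistant libraries right of the white line and genes grouped by class. LAMC1, LAMA5 and LAMB2 stayed bright in all 6 libraries, while LAMA3, COL6A1 and LAMC3 turned dark and MFAP2, COL14A1 and FBLN1 turned bright in the resistant libraries.

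MFAP2 encodes a microfibril associated glycoprotein that binds fibrillin and was among the genes measured by qRT-PCR in the study. The paper gives its qRT-PCR result as a fold increase over parental cells, which was not compared with the values here. It was listed at 0 in parental libraries 0, 1 and 2, and it was at 20.5, 25.3 and 23.3 FPKM in resistant libraries 0, 1 and 2 (adjusted p = 5.57e-06). With a mean of 23.0 ± 2.43 FPKM (SD, n = 3), it stood above every collagen gene in the resistant cells, and no fold change can be given against a group at 0. The gene lies on the minus strand of chromosome 1 (GRCh38, 16974502 to 16980632), and its locus in the table overlaps ATP13A2 on the same strand, a lysosomal transporter gene. ATP13A2 was at 26.0, 30.9 and 29.2 FPKM in the parental and at 41.3, 34.7 and 37.0 FPKM in the resistant libraries, so reads of the region were present in both groups. How reads were divided between both genes was not tested.

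Other members with the MFAP name did not follow it. MFAP3L, a paralog of MFAP3, was at 9.34, 12.8 and 9.51 FPKM in the parental and at 1.87, 1.91 and 1.55 FPKM in the resistant libraries. All resistant values lay far below the parental ones, and the gene fell 5.94-fold (log2 fold change -2.49, SE 0.19, adjusted p = 1.59e-04). MFAP3, a cell surface glycoprotein of the same family, was at 27.9, 34.9 and 31.6 FPKM in the parental and at 28.4, 33.7 and 32.3 FPKM in the resistant libraries. These ranges overlapped almost fully (log2 fold change 0.00, SE 0.12, adjusted p = 0.986). MFAP1, which despite its name acts in the nucleus in RNA splicing, was at 22.2, 20.8 and 30.05 FPKM in the parental and at 16.7, 20.0 and 20.1 FPKM in the resistant libraries (log2 fold change -0.35, SE 0.17, adjusted p = 0.137). Rescaling the libraries to an equal total without short genes made the MFAP1 difference pass the threshold, at a log2 fold change of -0.49 (adjusted p = 0.0240). MFAP5, the closest relative of MFAP2, had only zeros in the parental group, did not exceed 0.345 FPKM in the resistant group and was not tested.

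Fibrillins, the polymers that carry MFAP2 in microfibrils, were low throughout. FBN1, the main fibrillin of adult tissue, was at 0.0971, 0.292 and 0.716 FPKM in the parental and at 0.420, 0.447 and 0.230 FPKM in the resistant libraries, with no call (log2 fold change 0.19, SE 0.61, adjusted p = 0.825). Its parental values varied more than the difference between the groups. FBN3, a fibrillin known mainly from fetal tissue, was at 0.159, 0.0208 and 0.00823 FPKM in the parental and at 2.22, 4.16 and 1.52 FPKM in the resistant libraries. It rose 42.1-fold from values worth few reads (log2 fold change 4.07, SE 0.54, adjusted p = 0.00141), and the lowest resistant value was above the highest parental one. FBN2 was at 0.608 FPKM or less in every library and also rose (adjusted p = 0.0136). The level of MFAP2 in resistant cells was above the summed level of the 3 fibrillins, which was 3.38 ± 1.32 FPKM (SD, n = 3).

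Fibulins, which link microfibrils to elastin and basement membranes, moved in both directions. FBLN1 was at 0.396, 0.368 and 0.507 FPKM in the parental and at 6.77, 10.1 and 8.27 FPKM in the resistant libraries. The groups stood far apart, and the gene rose 19.8-fold (log2 fold change 4.01, SE 0.25, adjusted p = 6.74e-05). FBLN2 was at 3.24, 1.82 and 1.99 FPKM in the parental and at 0.187, 0.193 and 0.622 FPKM in the resistant libraries. It fell 7.04-fold without overlap of the groups (log2 fold change -2.60, SE 0.48, adjusted p = 0.00539). FBLN5, a fibulin needed for elastic fibre assembly, rose but stayed at 0.699 FPKM or less (adjusted p = 0.0115, and 0.0625 with quantile normalization). ELN, the gene of elastin itself, was at 0.0222, 0.445 and 0 FPKM in the parental and at 1.03, 0.0846 and 0.0304 FPKM in the resistant libraries. A single library in each group gave most of the ELN signal, and the gene was not called (adjusted p = 0.631). FBLN7 was at 0.665, 0.338 and 0.740 FPKM in the parental and at 1.16, 0.848 and 1.09 FPKM in the resistant libraries, without overlap but not called (adjusted p = 0.137).

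**Figure D2:**
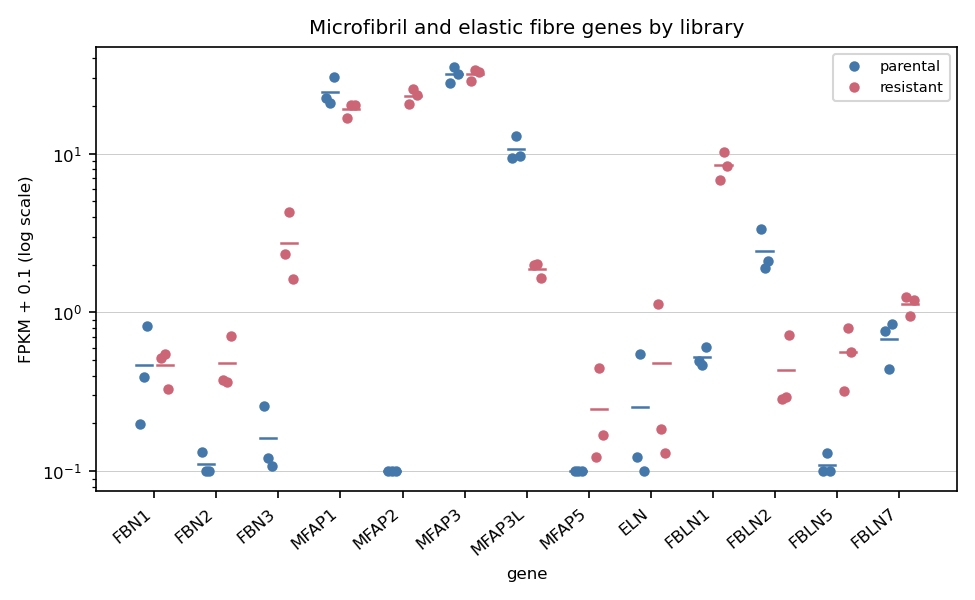
FPKM + 0.1 on a log scale for the 13 microfibril and elastic fibre genes above 0 in any library, with parental libraries in blue, resistant libraries in red and a line at the mean of each group. MFAP2, FBLN1 and FBN3 lie higher and MFAP3L and FBLN2 lie lower in the resistant cells, whereas the values of MFAP3, FBN1 and ELN overlap.

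Laminin genes held the largest part of the members' signal, with 429 ± 40.5 FPKM in parental and 284 ± 17.8 FPKM in resistant cells (SD, n = 3 each). Of 12 laminin genes, 11 were tested, 3 rose and 5 fell. These were 27.3% and 45.5% of those tested, against 22.1% and 22.3% of all genes tested. The alpha chains determine which receptor a laminin binds. LAMA3, the alpha chain of laminin-332 in epithelial basement membranes, was at 65.7, 68.7 and 77.4 FPKM in the parental and at 1.01, 0.982 and 1.46 FPKM in the resistant libraries. This was one of the clearest separations among the members, with a 61.2-fold fall (log2 fold change -5.84, SE 0.18, adjusted p = 6.27e-06). LAMA5, the alpha chain of laminin-511 and laminin-521, was at 80.8, 93.0 and 124 FPKM in the parental and at 62.4, 57.9 and 67.4 FPKM in the resistant libraries. The groups did not overlap, and the fall was 1.59-fold (log2 fold change -0.64, SE 0.16, adjusted p = 0.0188). Without resistant library 0 the adjusted p of LAMA5 was 0.0580, and without resistant library 1 it was 0.0678. The LAMA5 locus also holds the antisense gene LAMA5-AS1, at 21.1 to 24.1 FPKM in the parental and 0.667 to 2.78 FPKM in the resistant libraries, and since it is not stated that Cufflinks used the strand, reads of both genes may be mixed.

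LAMA3 gave 44.5%, 42.2% and 38.2% of the summed laminin alpha FPKM in the parental and 1.59%, 1.66% and 2.11% in the resistant libraries. LAMA5 gave 54.7%, 57.1% and 61.1% in the parental and 97.7%, 97.8% and 97.6% in the resistant libraries. Parental cells thus held transcripts of both chains at similar levels, and resistant cells held mainly LAMA5. LAMA1, the alpha chain of the embryonic laminin-111, was at 0.536, 0.819 and 0.773 FPKM in the parental and at 0.0360, 0 and 0.0144 FPKM in the resistant libraries, and fell as well (log2 fold change -2.79, SE 0.40, adjusted p = 0.00200). LAMA4 stayed between 0.199 and 0.620 FPKM with overlapping groups (adjusted p = 0.500), and LAMA2 was listed at 0 in 3 of the 6 libraries and was not tested.

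Beta chains were the laminin class in which no gene fell. LAMB2, the beta chain that pairs with LAMA5 in laminin-521, was at 66.6, 74.0 and 70.4 FPKM in the parental and at 84.1, 96.3 and 92.2 FPKM in the resistant libraries. The groups did not overlap, and the rise was 1.29-fold (log2 fold change 0.37, SE 0.08, adjusted p = 0.0109), which was not called after rescaling without short genes (adjusted p = 0.0538) or without the variance trend (adjusted p = 0.0598). LAMB1, the beta chain of laminin-111 and laminin-511, was at 4.88, 8.67 and 4.38 FPKM in the parental and at 12.6, 10.1 and 9.84 FPKM in the resistant libraries. The lowest resistant value lay just above the highest parental one, and the call (log2 fold change 0.91, SE 0.28, adjusted p = 0.0374) was lost when any library other than parental library 1 was left out, with adjusted p from 0.0815 to 0.118. LAMB3, the beta chain that joins LAMA3 in laminin-332, was at 0.818, 0.315 and 0.693 FPKM in the parental and at 0.782, 0.759 and 1.19 FPKM in the resistant libraries, with overlap and no call (adjusted p = 0.326). LAMB4, a little studied beta chain, stayed at 0.386 FPKM or less and was not called. LAMA3 transcripts in the parental cells were therefore far above those of its usual beta partner.

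Among the gamma chains, LAMC1 and LAMC3 both fell. LAMC1, the gamma chain of most laminins and the highest of all 70 genes, was at 174, 155 and 189 FPKM in the parental and at 102, 116 and 126 FPKM in the resistant libraries. It fell without overlap of the groups (log2 fold change -0.59, SE 0.11, adjusted p = 0.00582). LAMC3, a gamma chain of restricted distribution, was at 8.52, 9.28 and 9.09 FPKM in the parental and at 0.419, 0.313 and 0.382 FPKM in the resistant libraries. Its replicates were tight, and it fell 24.1-fold (log2 fold change -4.27, SE 0.21, adjusted p = 2.89e-05). Summed by class, alpha chains went from 171 ± 28.4 to 64.0 ± 4.96 FPKM, beta chains from 76.99 ± 5.47 to 103 ± 4.69 FPKM and gamma chains from 181 ± 16.8 to 117 ± 12.5 FPKM (SD, n = 3 each).

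**Figure D3:**
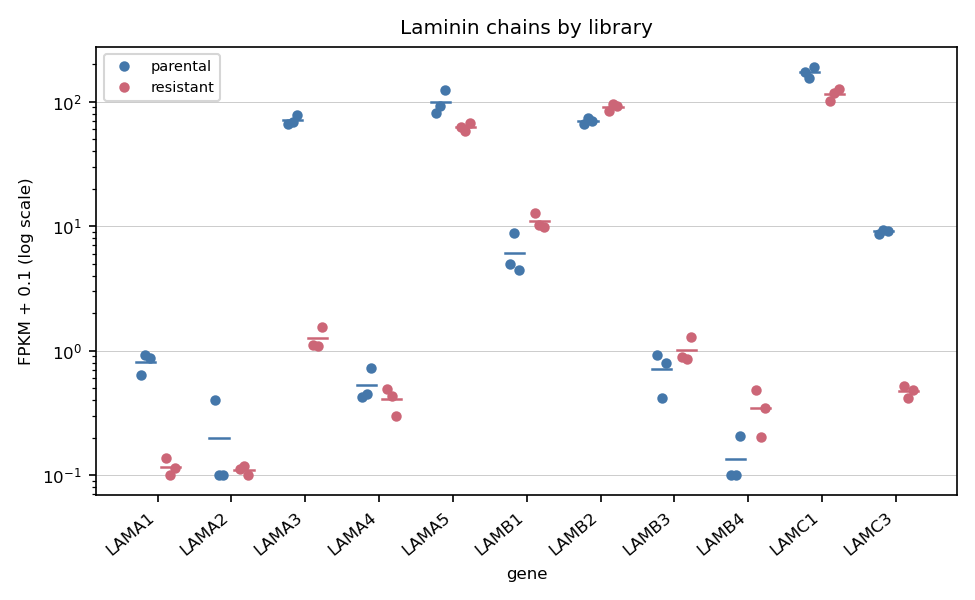
FPKM + 0.1 on a log scale for 11 laminin chains, with parental libraries in blue, resistant libraries in red and a line at the mean of each group. LAMA3 and LAMC3 drop by more than 10-fold, and LAMA5, LAMB2 and LAMC1 are at 57.9 FPKM or more in every library.

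Collagen IV chains, the other polymer of the basement membrane, are encoded by 6 genes that lie in pairs, head to head, with a common promoter region between each pair. By the RefSeq starts (GRCh38.p14), 127 bases separate COL4A1 and COL4A2 on chromosome 13, 419 bases separate COL4A4 and COL4A3 on chromosome 2 and 380 bases separate COL4A6 and COL4A5 on chromosome X. For COL4A6 the start nearer to COL4A5 was used, and RefSeq gives another at position 108438422. The windows from 250 bases before to 50 bases after the start are shown for the plus-strand gene of each pair, because each pair behaved differently in these libraries. The MFAP2 window is shown as well, since MFAP2 was listed at 0 in every parental library. Capitals mark CCAAT (or ATTGG on the other strand) and the GC box GGGCGG (or CCGCCC). The windows are COL4A2 at chr13:110307034-110307333, COL4A3 at chr2:227164374-227164673 and COL4A5 at chrX:108439588-108439887, all on the plus strand, and the MFAP2 window at chr1:16980571-16980870 on the minus strand.
COL4A2: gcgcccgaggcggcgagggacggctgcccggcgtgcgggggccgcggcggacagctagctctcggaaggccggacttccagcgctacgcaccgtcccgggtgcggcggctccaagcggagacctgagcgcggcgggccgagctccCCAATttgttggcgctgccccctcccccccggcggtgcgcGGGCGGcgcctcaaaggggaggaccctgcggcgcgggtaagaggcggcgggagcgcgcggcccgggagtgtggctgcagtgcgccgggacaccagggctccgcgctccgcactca
COL4A3: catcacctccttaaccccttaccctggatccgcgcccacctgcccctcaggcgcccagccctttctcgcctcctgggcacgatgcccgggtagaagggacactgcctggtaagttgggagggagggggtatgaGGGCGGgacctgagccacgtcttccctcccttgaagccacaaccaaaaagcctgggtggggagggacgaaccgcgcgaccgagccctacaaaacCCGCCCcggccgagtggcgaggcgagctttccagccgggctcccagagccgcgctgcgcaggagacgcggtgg
COL4A5: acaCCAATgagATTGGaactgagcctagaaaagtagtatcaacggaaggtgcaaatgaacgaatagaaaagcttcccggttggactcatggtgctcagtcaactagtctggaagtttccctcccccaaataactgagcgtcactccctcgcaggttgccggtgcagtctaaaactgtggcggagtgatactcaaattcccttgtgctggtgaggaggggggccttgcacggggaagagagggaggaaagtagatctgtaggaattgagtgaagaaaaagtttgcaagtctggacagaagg
MFAP2: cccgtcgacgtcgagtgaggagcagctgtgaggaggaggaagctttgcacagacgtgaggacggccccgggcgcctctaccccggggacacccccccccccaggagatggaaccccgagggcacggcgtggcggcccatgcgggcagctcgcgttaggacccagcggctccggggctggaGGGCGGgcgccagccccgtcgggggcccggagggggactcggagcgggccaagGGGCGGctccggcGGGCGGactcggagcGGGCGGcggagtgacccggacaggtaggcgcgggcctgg

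The COL4A2 window holds 1 CCAAT box and 1 GC box, the COL4A3 window holds 2 GC boxes, the COL4A5 window holds 2 CCAAT boxes and the MFAP2 window shown holds 4 GC boxes. RefSeq gives MFAP2 another start, with a window at chr1:16981534-16981833 that holds neither motif. No window of the 4 holds TATAAA or its reverse complement. Over the 70 RefSeq windows of the 52 members with an entry, 28.6% held CCAAT and 61.4% held GGGCGG, against 34.6% and 45.0% of all 35116 windows of the same length. These are matches of letters and not binding sites.

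The pair on chromosome 13 was uncoupled in the listed values. Both genes share a locus in the table, on opposite strands, and how reads were assigned there was not tested. COL4A1 was listed at 0 in 5 of the 6 libraries and at 0.0101 FPKM in resistant library 0. COL4A2, which normally joins COL4A1 in the most widespread collagen IV trimer, was at 3.72, 4.96 and 3.01 FPKM in the parental and at 0.678, 0.299 and 1.43 FPKM in the resistant libraries. All resistant values were lower, with a 4.85-fold fall (log2 fold change -2.33, SE 0.52, adjusted p = 0.0114), although COL4A1 was near 0 in both groups. The pair on chromosome X fell together. COL4A5 was at 29.5, 38.7 and 39.6 FPKM in the parental and at 14.4, 10.6 and 11.3 FPKM in the resistant libraries, without overlap and 2.97-fold lower (log2 fold change -1.56, SE 0.17, adjusted p = 5.83e-04). COL4A6 was at 1.41, 0.954 and 1.16 FPKM in the parental and at 0.440, 0.493 and 0.333 FPKM in the resistant libraries, 2.78-fold lower (log2 fold change -1.28, SE 0.32, adjusted p = 0.0179). The COL4A6 call was lost without parental library 0 (adjusted p = 0.0642) or without parental library 2 (adjusted p = 0.0507). COL4A5 exceeded COL4A6 by 21.0 to 40.5 times in the parental and by 21.5 to 34.0 times in the resistant libraries, so the ratio of the pair overlapped between the groups.

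The pair on chromosome 2 rose together. COL4A3, whose chain is found in the basement membranes of kidney and lung, was at 0.184, 0.0519 and 0 FPKM in the parental and at 1.51, 1.61 and 2.47 FPKM in the resistant libraries (log2 fold change 3.56, SE 0.50, adjusted p = 0.00171). COL4A4 was at 0.0421, 0 and 0.0315 FPKM in the parental and at 0.600, 0.554 and 0.804 FPKM in the resistant libraries (log2 fold change 2.60, SE 0.40, adjusted p = 0.00269). In both genes each resistant value was above each parental one. Together they gave 0.649%, 0.116% and 0.0718% of the collagen IV FPKM in the parental and 12.01%, 16.0% and 20.0% in the resistant libraries. COL4A5 was the highest chain in every library, at 84.6%, 86.6% and 90.4% in the parental and 81.6%, 78.2% and 69.2% in the resistant libraries. The COL4A3 locus in the table also holds MFF, on the same strand, at 46.7 to 48.3 FPKM in the parental and 57.2 to 70.2 FPKM in the resistant libraries. How reads were assigned there was not tested. The other network collagens tested, COL8A1 and COL8A2, stayed at 0.612 FPKM or less and rose. The COL8A1 call (adjusted p = 0.0325) was kept only without resistant library 1 among the fits that left a library out, and COL8A2 had an adjusted p of 0.00621.

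Collagen VI lost most of its signal. COL6A1 was at 25.6, 33.1 and 28.6 FPKM in the parental and at 1.94, 1.55 and 1.86 FPKM in the resistant libraries. The fall was 16.3-fold with no overlap (log2 fold change -3.95, SE 0.16, adjusted p = 1.56e-05). COL6A2, its neighbour on chromosome 21, was at 9.97, 8.69 and 11.1 FPKM in the parental and at 1.34, 1.19 and 1.30 FPKM in the resistant libraries, 7.76-fold lower (log2 fold change -2.86, SE 0.17, adjusted p = 6.02e-05). The ratio of COL6A1 to COL6A2 was 2.57, 3.804 and 2.58 in the parental and 1.45, 1.31 and 1.43 in the resistant libraries, so the pair fell unequally. COL6A3, the third chain of the common collagen VI trimer, was at 0.0151, 0 and 0.532 FPKM in the parental and at 0.341, 0.178 and 0.557 FPKM in the resistant libraries. Its groups overlapped through parental library 2, and it was not called (log2 fold change 1.16, SE 0.83, adjusted p = 0.304), while without that library the adjusted p was 0.0463. The summed collagen VI level was 39.2 ± 3.20 FPKM in parental and 3.42 ± 0.439 FPKM in resistant cells (SD, n = 3 each).

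**Figure D4:**
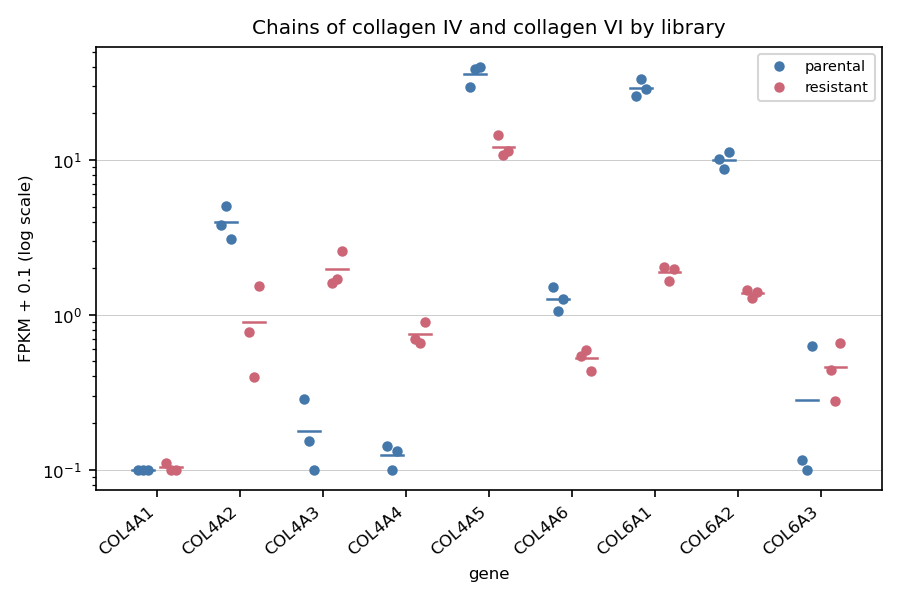
FPKM + 0.1 on a log scale for the 6 chains of collagen IV and the 3 chains of collagen VI above 0 in any library, with parental libraries in blue, resistant libraries in red and a line at the mean of each group. COL4A5, COL4A6, COL4A2, COL6A1 and COL6A2 lie lower and COL4A3 and COL4A4 lie higher in the resistant cells, while COL4A1 lies at the floor in both.

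Of 11 fibrillar collagens, 7 were tested, 4 rose and none fell by limma. These were 57.1% and 0% of those tested, against 22.1% and 22.3% of all genes tested. At an unadjusted p below 0.05 the count of lower fibrillar collagens was also 0. COL5A2, a chain of the type V collagen that starts fibril assembly, was at 0.440, 0.191 and 0.345 FPKM in the parental and at 4.14, 5.67 and 6.44 FPKM in the resistant libraries. It rose 16.6-fold without overlap (log2 fold change 3.72, SE 0.34, adjusted p = 2.91e-04). Its partner chain COL5A1 was at 0.00907 FPKM or less in every library. COL27A1, a fibrillar collagen of cartilage, was listed at 0 in all parental libraries and was at 3.40, 3.25 and 2.85 FPKM in the resistant libraries (adjusted p = 7.10e-05). COL24A1, which is close to COL27A1 in structure, was at 0.0231, 0.0556 and 0.0832 FPKM in the parental and at 1.26, 0.945 and 1.37 FPKM in the resistant libraries, 22.1-fold higher (log2 fold change 3.07, SE 0.38, adjusted p = 0.00102). COL2A1, the main collagen of cartilage, was at 0.306 FPKM or less in the parental and from 0.552 to 0.922 FPKM in the resistant libraries (log2 fold change 2.00, SE 0.60, adjusted p = 0.0351). The COL2A1 call was kept only without parental library 0 among the fits that left a library out.

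The major fibrillar collagens of stroma did not pass the threshold. COL1A1 was at 6.39, 4.98 and 8.74 FPKM in the parental and at 2.86, 3.47 and 6.83 FPKM in the resistant libraries, with overlap through resistant library 2 (log2 fold change -0.66, SE 0.37, adjusted p = 0.192). Without resistant library 2 the log2 fold change was -1.03 and the adjusted p was 0.0428. COL1A2, the other chain of type I collagen, was at 0.132 FPKM or less in every library. COL3A1 was at 0.170, 2.24 and 0.174 FPKM in the parental and at 0.615, 0.314 and 2.37 FPKM in the resistant libraries, with 1 high library in each group and no call (adjusted p = 0.625).

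The FACIT collagens, which sit on the surface of fibrils with interrupted triple helices, gave 2 genes that rose and 1 that fell among 9 tested. These were 22.2% and 11.1% of those tested, against 22.1% and 22.3% of all genes tested. COL14A1, which regulates fibril diameter, was at 0.135, 0 and 0.0395 FPKM in the parental and at 7.97, 8.29 and 7.15 FPKM in the resistant libraries. The groups were far apart, with 134-fold higher FPKM against values worth few reads (log2 fold change 5.73, SE 0.38, adjusted p = 8.70e-05). The 3 chains of type IX collagen did not move together. COL9A1 was listed at 0 in every parental library and was at 0.498, 1.06 and 0.999 FPKM in the resistant libraries (adjusted p = 0.00164). COL9A2 was at 4.29, 6.11 and 5.81 FPKM in the parental and at 1.87, 1.48 and 1.04 FPKM in the resistant libraries, 3.69-fold lower (log2 fold change -1.84, SE 0.28, adjusted p = 0.00231). COL9A3 was at 8.70, 13.1 and 9.18 FPKM in the parental and at 8.05, 7.11 and 7.46 FPKM in the resistant libraries, lower in every library but not called (log2 fold change -0.43, SE 0.18, adjusted p = 0.104). COL12A1 and COL16A1 lay between 0.473 and 5.05 FPKM with overlapping groups and were not called. COL21A1 and COL22A1 were listed at 0 in all parental libraries but varied from 0.0633 to 1.09 and from 0 to 1.32 FPKM among the resistant libraries, and were not called. Each resistant value of COL21A1 was above 0 (adjusted p = 0.0547), and the gene was called with a pseudocount of 0.01 FPKM (adjusted p = 0.0173), after rescaling without short genes (adjusted p = 0.0331) and without resistant library 1 (adjusted p = 0.00927).

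The remaining collagens were split. COL26A1, a collagen also known as EMID2, was at 3.08, 4.10 and 3.66 FPKM in the parental and at 0.399, 0.279 and 0.243 FPKM in the resistant libraries, 11.8-fold lower (log2 fold change -3.20, SE 0.28, adjusted p = 2.76e-04). COL18A1, the basement membrane collagen that gives rise to endostatin, was at 2.96, 4.37 and 5.98 FPKM in the parental and at 1.11, 0.798 and 0.323 FPKM in the resistant libraries, 5.96-fold lower (log2 fold change -2.50, SE 0.47, adjusted p = 0.00589). The overlapping SLC19A1 on the opposite strand was also lower, at 36.2 to 41.0 FPKM in the parental and 19.6 to 21.3 FPKM in the resistant libraries, and its part in the COL18A1 values was not tested. COL28A1 was at 0.111, 0.0898 and 0 FPKM in the parental and at 2.07, 1.68 and 2.12 FPKM in the resistant libraries, 29.2-fold higher (log2 fold change 3.69, SE 0.42, adjusted p = 7.17e-04). COL25A1, a membrane-spanning collagen known from neurons, was at 0, 0.0585 and 0.0285 FPKM in the parental and at 0.778, 0.823 and 1.47 FPKM in the resistant libraries (log2 fold change 3.10, SE 0.44, adjusted p = 0.00180). COL7A1, which forms the anchoring fibrils under epithelia, was at 8.78, 7.86 and 10.5 FPKM in the parental and at 11.6, 11.6 and 17.1 FPKM in the resistant libraries. Each resistant value of COL7A1 was above each parental value, but the difference missed the threshold (log2 fold change 0.55, SE 0.20, adjusted p = 0.0662), and quantile normalization gave an adjusted p of 0.0461. COL11A2, COL13A1, COL17A1 and COL19A1 stayed at 0.480 FPKM or less in every library and were not called, although COL17A1 was called without resistant library 1 (log2 fold change 2.00, adjusted p = 0.0216). The genes COL5A3, COL10A1, COL11A1, COL15A1, COL20A1 and COL23A1 were too low to be tested. Summed over all collagens, the level was 127 ± 15.4 FPKM in parental and 75.2 ± 7.51 FPKM in resistant cells (SD, n = 3 each).

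**Figure D5:**
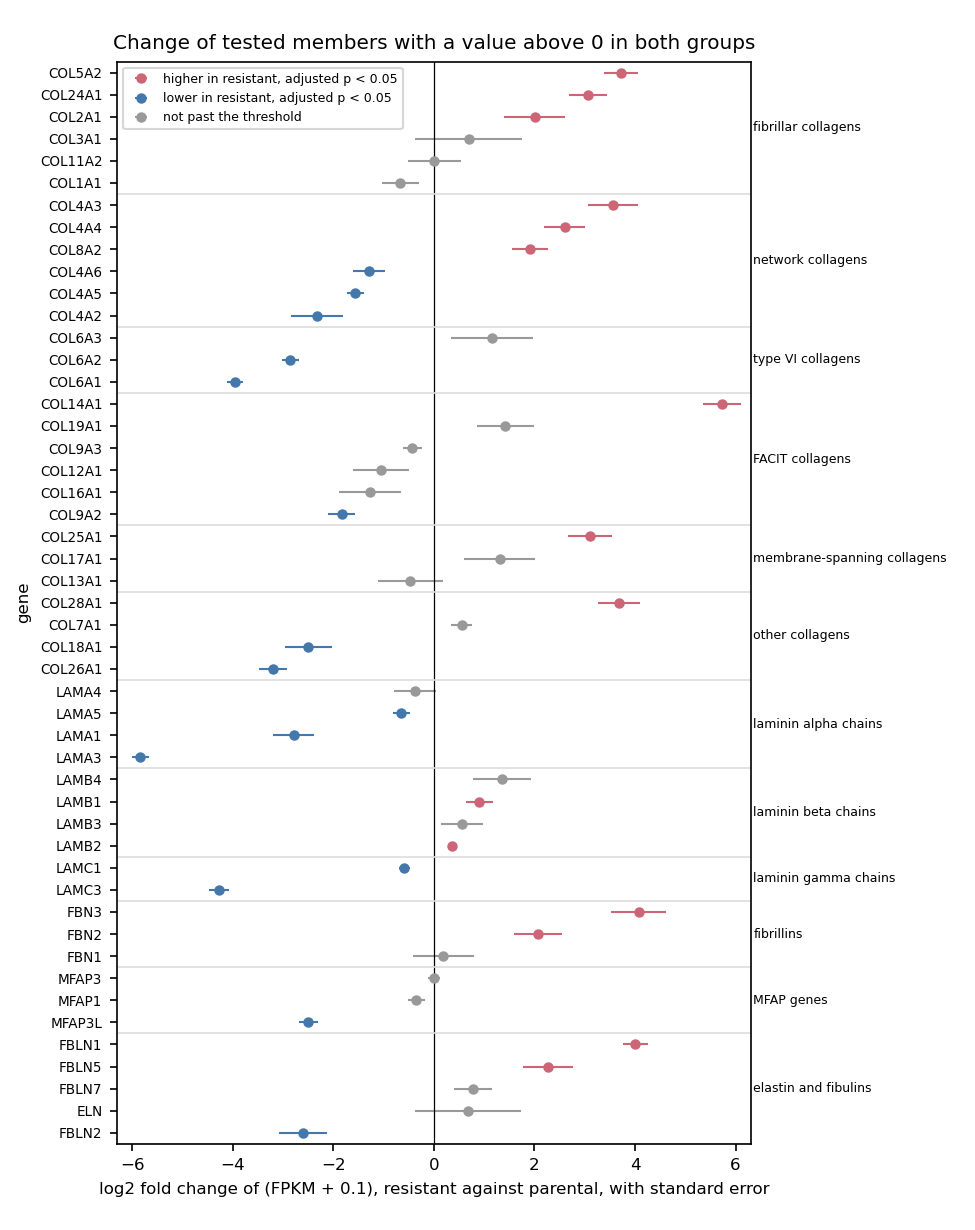
Log2 fold change of FPKM + 0.1 in resistant against parental cells, with its standard error, for tested members above 0 in both groups, sorted within each class. Red points rose, blue points fell and grey points were not called. The changes run from -5.84 in LAMA3 to 5.73 in COL14A1, and both directions occur within the network collagens and the fibulins.

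Genes that fold, cross-link, bind or cut these proteins were examined as 93 partner genes in 5 lists, of which 76 were tested, 34 rose and 21 fell. Of the tested partner genes 44.7% rose and 27.6% fell, against 22.1% and 22.3% of all genes tested. Among 26 genes of collagen folding and cross-linking, 11 rose and 10 fell, and the median log2 fold change of the tested genes was 0.10. These were 45.8% and 41.7% of the tested genes of the list. P3H3, a collagen prolyl 3-hydroxylase family member, was at 0.405, 0.442 and 1.25 FPKM in the parental and at 41.0, 36.1 and 41.1 FPKM in the resistant libraries, a rise of 56.5-fold (log2 fold change 5.78, SE 0.38, adjusted p = 8.84e-05). PLOD3, a lysyl hydroxylase that also adds sugars to collagen, rose 2.45-fold. P4HB, a subunit of prolyl 4-hydroxylase, fell 2.09-fold and PPIB, the cyclophilin of the collagen folding complex, fell 2.24-fold. Both P4HB and PPIB also serve other secreted proteins. Since these lists were drawn up with earlier results of the data known, their counts are a description.

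In the basement membrane list of 12 genes, 3 rose and 4 fell. These were 30% and 40% of those tested, against 22.1% and 22.3% of all genes tested. NID1, nidogen, the linker of laminin and collagen IV, was at 0.00953, 0.0192 and 0.0141 FPKM in the parental and at 3.82, 4.13 and 4.56 FPKM in the resistant libraries (log2 fold change 5.22, SE 0.30, adjusted p = 5.20e-05). The parental values of NID1 were worth about 1 read or a few reads, so the size of its rise is imprecise. TINAGL1, a matrix protein that binds laminin and integrins, rose 21.2-fold. HSPG2, perlecan, fell 2.14-fold and DAG1, dystroglycan, a laminin receptor, fell 1.37-fold.

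Of 15 collagen and laminin receptors, 6 rose and 3 fell. These were 42.9% and 21.4% of those tested, against 22.1% and 22.3% of all genes tested. ITGA6, the integrin alpha 6 chain of laminin receptors, was at 11.1, 13.05 and 12.1 FPKM in the parental and at 1.79, 2.64 and 2.33 FPKM in the resistant libraries, 5.36-fold lower (log2 fold change -2.39, SE 0.18, adjusted p = 1.61e-04). ITGA3, the alpha 3 chain, which binds the same laminins and was chosen after its values were seen, was at 3.60, 3.56 and 4.52 FPKM in the parental and at 17.5, 17.8 and 17.6 FPKM in the resistant libraries, 4.53-fold higher. These integrin chains changed in opposite directions. BCAM, the Lutheran receptor for LAMA5, rose 6.32-fold. Of the collagen receptor kinases, DDR1 rose 1.91-fold and DDR2 fell 4.04-fold.

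The list of 18 other genes of elastic fibres and microfibrils had 8 genes that rose and 1 that fell, TGFB2, with a median log2 fold change of 1.14 over the 14 tested. Of those tested 57.1% rose and 7.14% fell, against 22.1% and 22.3% of all genes tested. LTBP4, which anchors latent transforming growth factor beta and helps elastic fibre assembly, rose 1.93-fold. TGFB3, a ligand held in this matrix, was at 0.200, 0 and 0.753 FPKM in the parental and at 17.5, 12.7 and 9.92 FPKM in the resistant libraries, 42.1-fold higher. TGFB2, named because it was the 1 gene that fell, decreased 7.23-fold from a parental mean of 0.832 FPKM. Among 22 matrix proteases and inhibitors, 6 rose and 3 fell, or 42.9% and 21.4% of those tested. TIMP1, an inhibitor of matrix metalloproteinases, was at 1.10, 0 and 0.382 FPKM in the parental and at 75.8, 73.1 and 64.9 FPKM in the resistant libraries, 144-fold higher (log2 fold change 7.52, SE 0.84, adjusted p = 6.81e-04). MMP24 rose 22.6-fold, while MMP15 fell 3.65-fold and MMP16 fell 3.14-fold, all membrane-bound metalloproteinases. TIMP2, another inhibitor of these proteases, named after its values were seen, was at 9.76, 9.34 and 9.06 FPKM in the parental and at 0.336, 0.407 and 0.412 FPKM in the resistant libraries, 24.4-fold lower (log2 fold change -4.29, SE 0.20, adjusted p = 2.49e-05).

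Because much of this matrix is usually made by stromal cells, markers of other cell types were read in the same libraries. All 10 luminal prostate markers were at 41.8 FPKM or more in every library, and their sum was 4227 to 5004 FPKM in the parental and 1234 to 1320 FPKM in the resistant libraries. KLK3, which encodes prostate-specific antigen, fell 58.0-fold and HOXB13, a prostate lineage factor, was not called (adjusted p = 0.884). The 12 fibroblast and stromal markers summed to 224 to 259 FPKM in the parental and 49.7 to 63.6 FPKM in the resistant libraries, with 3 that rose and 3 that fell. Of the 7 tested, 42.9% rose and 42.9% fell, against 22.1% and 22.3% of all genes tested. FN1, fibronectin, held most of this sum and fell 4.88-fold. VIM fell 4.07-fold and PDGFRB fell 12.9-fold. DCN, decorin, was listed at 0 in every parental library and was at 3.63, 3.78 and 4.35 FPKM in the resistant libraries, and ACTA2 rose 2.06-fold. TCF21 and ASPN were listed at 0 in every library, and 5 of the 12 markers, these included, were below 1 FPKM throughout. The 8 endothelial markers summed to 0.735 to 1.36 FPKM in the parental and 0.423 to 0.796 FPKM in the resistant libraries, with KDR listed at 0. VWF, named after its values were seen, was the highest of them in each parental library, at 0.709, 0.568 and 1.14 FPKM. It was 1 of 2 endothelial markers tested and fell 3.48-fold (adjusted p = 0.0491). The part of a change in cell makeup in these results was not tested.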

How the data were processed

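The study sequenced 3 parental and 3 enzalutamide resistant C4-2B libraries with 50 bp single-end reads. TrimGalore was used by the authors for trimming and STAR for alignment to GRCh38 and the GENCODE v25 models, and the deposited FPKM values were made with Cufflinks. The table names no unit, and FPKM was taken from the methods and the form of the values. The submitters' processing notes name Trimmomatic 0.27, FastQC 0.10.1 and a mouse build, which goes against the human gene identifiers. The labels name both an unstranded and a stranded library kit, and strand use in counting is not given in the sources used here. Scaling between libraries is likewise not given.

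Here, log2(FPKM + 0.1) was fitted with limma 3.58.1 in R 4.3.3, using eBayes with its trend option, for the 24468 genes averaging 0.1 FPKM or more, with two-sided p-values adjusted by the Benjamini-Hochberg method and a threshold of 0.05. No count test was possible, since only 38.1% to 51.8% of low values lay within 0.1 of a whole read. The depth estimate assumes fragments of 200 bases. An exact permutation test of 3 against 3 cannot go below 0.1. Positions and lengths came from GENCODE v44, and promoter windows from RefSeq. Tables were processed in Python 3.11.15 (pandas 2.3.3, numpy 2.4.6), and plots were made in matplotlib 3.10.9. Simulated data with known changes served to test the fit.

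The members, partner lists and marker lists were chosen with earlier results of these data known. The text names MFAP2, the called members with a mean of at least 1 FPKM in either group (at most 4 per class and direction), the highest member of each class in each group, the 3 highest members that were tested and not called, the 2 highest called genes in each direction of each partner list at 1 FPKM or more, and markers at that level. Other members were named after their values were seen, to complete their class. Some genes that these choices cover are not reported here. Alternatives covered the pseudocount, the filter, 3 scalings, the variance trend, a replicate block, a 2-fold minimum and each library left out.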

Additional observations from a re-analysis of the deposited data

How the results depend on the processing

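With each library left out in turn, 17 to 20 members rose and 14 to 16 fell, against 20 and 15 with all libraries, and for the partner genes 28 to 34 rose and 19 to 22 fell, against 34 and 21. A filter at an average of 1 FPKM left 9 members that rose, because 29 instead of 56 members were tested, and the share of rises among the called members went from 57.1% to 40.9%. Over all called genes the same share went from 49.7% to 46.7%. Over 34 named members, 476 single-gene alternatives kept the direction and the side of the threshold, 15 lost the call, 4 gained it and 7 changed sign. The sign changes were in genes that were not called. FBN1 went to -0.076 with quantile normalization and to -0.32 without parental replicate 0, with 0.71 as its highest value when a library was left out, and MFAP3 went to -0.054 with median scaling, -0.14 after rescaling without short genes, -0.080 without parental replicate 0, -0.048 without resistant replicate 1 and -0.019 without resistant replicate 2, with 0.080 as its highest value when a library was left out (all log2 fold changes). The cause was not tested. Rescaling without short genes moved the median log2 fold change of all genes from -0.05 to -0.17, and 19 members rose and 16 fell relative to the rescaled totals. Replicate numbers are a label only, since deviations of same-numbered libraries correlated at 0.00802, 0.0165 and -0.00301. With the replicate number as a block, 18 members rose and 14 fell, the calls of COL4A6 (adjusted p = 0.0558), LAMB1 (adjusted p = 0.0592), COL2A1 (adjusted p = 0.0782) and COL8A1 (adjusted p = 0.0823) were lost and COL7A1 was called (adjusted p = 0.0317). The LAMB1 call was also lost after rescaling without short genes (adjusted p = 0.0695) and without the variance trend (adjusted p = 0.0628). The COL2A1 call was also lost with a pseudocount of 0.01 FPKM (adjusted p = 0.0943), with no filter other than a value above 0 (adjusted p = 0.0521) and with quantile normalization (adjusted p = 0.0591), and the COL8A1 call with a pseudocount of 1 FPKM (adjusted p = 0.0767) and with quantile normalization (adjusted p = 0.0602). The 14 members with a mean under 0.1 FPKM were not tested, since values at that level rest on few reads.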

Other observations

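The position of the members on the chromosomes belonged to no comparison above, and the genes named here were chosen after their values were seen. The 3 members on chromosome 21, COL6A1, COL6A2 and COL18A1, all fell, as did both members on chromosome 18, LAMA1 and LAMA3, and both members on chromosome X, COL4A5 and COL4A6. Of the tested genes averaging 1 FPKM or more, 31.3% on chromosome 21, 31.5% on chromosome 18 and 31.8% on chromosome X were called lower, against 28.3% on all chromosomes. Among 16 such genes within 1 Mb of LAMA3, 9 fell and 1 rose, with a median log2 fold change of -1.84. Among 20 such genes within 1 Mb of COL6A1, 8 fell and 2 rose, with a median of -0.39. These 20 include the members COL6A2 and COL18A1, so their falls are counted again here. Around MFAP2, 9 of 18 such genes rose and 1 fell, with a median of 0.61. Around COL26A1, which fell, 21 of 48 such genes rose and 5 fell, with a median of 0.39. Over all chromosomes, 4039 of 16158 genes at this level rose and 4578 fell, with a median of -0.09. On chromosome 7, which holds COL26A1, 293 of 809 rose and 142 fell, with a median of 0.27. On chromosome 1, which holds MFAP2, 456 of 1567 rose and 399 fell, with a median of 0.03. Whether the copy number of these regions differed was not tested.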
